A study of Bos taurus with 27 samples.

Results

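ZNF genes are the zinc finger genes that carry a number after the letters ZNF in their symbol. They were taken from the array as every probe other than a control whose gene name starts with ZNF and a digit, and the probe of highest mean intensity stood for a gene with several probes. This gave 224 ZNF genes of 14952 gene names on the array. The RNA came from the rumen epithelium (RE), the stratified lining of the rumen, of 9 Japanese Black cattle, which were biopsied 3 times, at 14 months of age (early fattening stage), 21 months (middle) and 29 months (late). Each biopsy was hybridized to 1 array with a single color, which gave 27 arrays, 9 at each stage.

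All 9 were castrated males of 1 breed with a rumen fistula, fed concentrate and rice straw at every stage, with less straw relative to concentrate after the early stage. No animals on another diet were measured, so age, time on the diet and the make-up of the ration cannot be told apart. As in the study, the comparison of the middle with the early stage is called the first period, of the late with the middle stage the second period, and of the late with the early stage the total period.

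Most ZNF proteins bind DNA through arrays of C2H2 zinc fingers, short loops held by a zinc ion, and differ in the sequence they recognize. A large subgroup carries a KRAB domain, which recruits the corepressor TRIM28 and, through it, histone methyltransferases and heterochromatin proteins, and is best known for silencing transposable elements. Other members with the same prefix work outside this scheme, as activators of transcription, as splicing and ribosome assembly factors, or, like ZNF750, as regulators of the differentiation of stratified epithelia.

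A level here is the log2 of the processed intensity of a probe minus the median of its array, and a change is a difference of such levels between stages within the same animals. Levels serve to compare stages for 1 probe and not 1 gene with another, since probes differ in how they hybridize. Tests come from a limma model with a mean for each stage and an effect for each animal, and *P* values were adjusted over 15008 probes. Genes with an adjusted *P* below 0.05 count as differentially expressed (DEGs). A probe that the scanner software called well above background on all 27 arrays is called bright, and any other probe dim. By this rule 95 ZNF genes were bright and 129 were dim, and 6764 of all probes were bright.

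The arrays were not alike between stages. Their median processed signal lay between 35.2 and 48.6 at the early, 8.22 and 28.7 at the middle and 32.2 and 47.0 at the late stage, and 68.8 to 78.1%, 48.5 to 71.5% and 68.4 to 73.7% of probes were well above background. Among all bright probes 34.8% rose and 27.0% fell in the first period, 37.8% and 30.4% in the second and 18.0% and 7.97% in the total period. Of the 12 bright probes for markers of stratified epithelium, 8 fell and 1 rose in the first period and 5 rose and 1 fell in the second. Their mean level with that of the dim DSG1 and KRT4 probes was 5.78 to 6.36 at the early, 4.88 to 6.55 at the middle and 5.87 to 6.36 at the late stage. Of markers of other cell types, both bright smooth muscle probes that passed in the first period, ACTA2 and MYLK, rose, and all 3 bright ones, with TAGLN, fell in the second. The mean level of the smooth muscle markers was 0.48 to 3.05 at the early, 0.51 to 3.89 at the middle and 0.53 to 1.61 at the late stage. Of 5 bright fibroblast probes 1 rose and 1 fell in the first period and 1 rose and 3 fell in the second, with a mean level of the list of 2.42 to 4.98, 2.65 to 5.37 and 2.56 to 4.44. The bright red blood cell probe, HBA, rose by 1.22 in the first period and fell by 1.13 in the second. Of the 3 bright leukocyte probes none passed in the first period, CD68 rose and PTPRC fell in the second, and PTPRC was lower over the total period. The leukocyte list had mean levels of −0.83 to 0.63, −0.85 to 0.28 and −1.04 to 0.018, and neither bright endothelial probe passed in any period. CNN1, DES and MYH11 of smooth muscle, PDGFRA of fibroblasts, CDH5 and PECAM1 of endothelium, CD3D, CD3E, CD79A and MS4A1 of leukocytes and HBB of red blood cells were dim. The part of array brightness and cell make-up in the changes below was not tested.

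Stage and slide largely coincided. The early arrays of cattle 1 to 8 were on slide 1, the early array of animal 9 and the middle arrays of cattle 1 to 7 on slide 2, the other middle arrays on slide 3, and the late arrays on slides 4 and 5. Late arrays therefore shared no slide and no scan day with other arrays, and for the second and total periods slide and stage cannot be told apart. In the first period cattle 1 to 7 all went from slide 1 to slide 2. First-period estimates with the slide as a fixed block, given below, therefore rest on animals 8 and 9 to part slide from stage.

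ZNF33B, a gene of the KRAB type, was the ZNF gene that the study also followed by quantitative PCR, so its probe is shown first. The identifiers printed for this probe on the array name transcripts of 3 genes, ZNF33B, MTMR2 and CWC25, and no other ZNF probe named more than 1. MTMR2 encodes a phosphatase of membrane lipids and CWC25 a splicing factor, and neither is a zinc finger gene. The MTMR2 probe of the array shares an unbroken run of 37 bases with it, in capitals below, on the same strand of the probe.

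ZNF33B (chr28:12903714-12903773, plus strand, UMD 3.1): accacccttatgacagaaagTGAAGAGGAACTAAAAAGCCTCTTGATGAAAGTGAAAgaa
MTMR2 (chr15:14715485-14715544, plus strand, UMD 3.1): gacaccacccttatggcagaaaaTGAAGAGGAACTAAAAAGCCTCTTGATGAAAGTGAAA

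At the ZNF33B probe the lowest, median and highest levels of the 9 arrays were 4.47, 4.63 and 5.39 at the early stage, 5.00, 6.65 and 8.90 at the middle stage and 3.55, 3.95 and 4.58 at the late stage. Every animal was highest at the middle stage. Of the middle arrays only the lowest, that of animal 8, overlapped with the early ones, lying below the early arrays of cattle 1 and 2. The change was 2.05 ± 0.28 (SE, adjusted *P* = 8.13e-06) in the first period, a 4.13-fold rise. In the second period it was −2.85 ± 0.28 (SE, adjusted *P* = 7.78e-08), a 7.23-fold fall. Both went the same way in 9 of 9 cattle. In the total period the change was −0.81 ± 0.28 (SE, adjusted *P* = 0.0488), with 8 of 9 cattle lower at the late stage. This last call ended without the animal effect (adjusted *P* = 0.0573), after normexp background correction (adjusted *P* = 0.414), with the slide as a random block (adjusted *P* = 0.731), and when any of cattle 1, 2, 3, 5, 6, 7 or 8 was left out (adjusted *P* from 0.0579 to 0.110).

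The MTMR2 probe gave 5.79, 6.16 and 6.83 at the early, 7.01, 8.12 and 10.25 at the middle and 5.30, 5.79 and 6.16 at the late stage. Its changes were 2.11 ± 0.25 (SE, adjusted *P* = 1.43e-06), −2.61 ± 0.25 (SE, adjusted *P* = 4.42e-08) and −0.50 ± 0.25 (SE, adjusted *P* = 0.166) in the first, second and total periods. Over the 27 arrays the levels of both probes had a Pearson correlation of 0.992, and their deviations from the stage means one of 0.983, as a description of probes that share bases and arrays. The CWC25 probe, with which no run of 16 bases was shared, changed by 1.00 ± 0.16 (SE, adjusted *P* = 2.59e-05), −1.55 ± 0.16 (SE, adjusted *P* = 9.46e-08) and −0.55 ± 0.16 (SE, adjusted *P* = 0.017). The signal at the ZNF33B probe can therefore not be assigned to ZNF33B alone from these data.

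**Figure D1:**
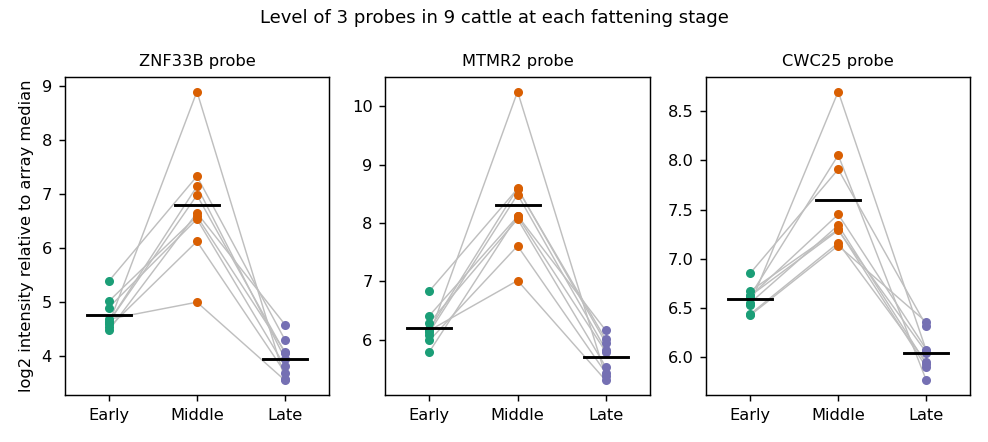
Levels, as log2 intensity relative to the array median, at the probes for ZNF33B, MTMR2 and CWC25 by fattening stage. Each point is 1 array, grey lines join the arrays of 1 animal, black bars are means of 9, and each panel has its own scale. The animal with the highest middle value at the ZNF33B probe, 8.90, is also the one with the highest at the MTMR2 probe, 10.25.

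After the overlap of the ZNF33B and MTMR2 probes was seen, shared runs were searched in all probes. Of the 224 ZNF probes 10, or 4.46%, shared at least 16 bases in a row on the same strand with the probe of another gene, beside 438 of 15008 probes, or 2.92%. ZNF33B was the only bright one among them. The longest run between probes of 2 ZNF genes, 26 bases, lay in those of ZNF570 and ZNF583, again in capitals.

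ZNF570 (chr18:47674754-47674813, plus strand, UMD 3.1): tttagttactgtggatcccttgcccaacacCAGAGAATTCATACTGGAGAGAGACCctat
ZNF583 (chr18:63904459-63904518, minus strand, UMD 3.1): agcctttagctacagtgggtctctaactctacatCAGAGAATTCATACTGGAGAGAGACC

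Their values did not move alike. ZNF583 changed by −1.49 ± 0.23 (SE, adjusted *P* = 2.45e-05) and 1.61 ± 0.23 (SE, adjusted *P* = 5.96e-06) in the first and second periods, and ZNF570 gave 0.25 ± 0.095 (SE, adjusted *P* = 0.0262) and −0.065 ± 0.095 (SE, adjusted *P* = 0.546). Over the 27 arrays the correlation of their levels was −0.178.

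In the first period more bright ZNF genes rose than fell. Of 95, 51 were upregulated, 12 were downregulated and 32 did not pass the test, with a median change of 0.33. Taking bright and dim together, 114 of the 224 ZNF genes rose and 32 fell, beside 45.3% and 21.3% of all probes. Among bright probes 34.8% rose and 27.0% fell, with a median change of 0.076. At least 2-fold, 6 bright ZNF genes rose (ZNF518A, ZNF33B, ZNF395, ZNF177, ZNF333 and ZNF280D) and 1 fell (ZNF414), beside 7.17% and 7.05% of bright probes. Of the 129 dim ZNF genes 63 rose and 20 fell, with a median of 0.40, beside 53.8% and 16.6% of dim probes and a median of 0.68. At least 2-fold, 31 dim ones rose and 7 fell, beside 37.6% and 8.01% of dim probes. In a bulk biopsy, fewer cells of a type and less RNA per cell cannot be told apart.

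These counts changed with the way slides, background and scaling were handled, and the part of batches in them was not tested. When the slide was a fixed block, 12 bright ZNF genes rose and 0 fell, beside 4.89% and 0.665% of bright probes. Of the 44 ZNF genes named by rule only ZNF33B, ZNF518A and ZNF408 passed in that fit, where the median SE over all probes was 0.67 instead of 0.19, and the other first-period calls among the 44 ended there. Slide 2 alone held 1 early array, so no test of that fit is given. The median change of bright ZNF genes was 0.49 there, beside 0.12 for bright probes. Over the arrays of the first scan day 40 rose and 11 fell, beside 27.8% and 24.0% of bright probes. When the slide was a random block 43 rose and 4 fell, beside 27.3% and 14.6%. After normexp background correction the split was 15 higher to 19 lower, beside 744 higher and 2541 lower of the 6764 bright probes. Normexp moved the median change of all probes from 0.32 to 0.12 in the first period, and the 75th percentile moved that of the second from −0.27 to −0.46. Relative to all bright probes the median of bright ZNF genes lay 0.26 higher in the fit as reported and 0.20 higher after normexp.

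In the second period the balance was the other way. Of the 95 bright ZNF genes 21 were upregulated, 34 were downregulated and 40 did not pass, with a median change of −0.061. Bright probes rose in 37.8% and fell in 30.4%, with a median of 0.098. At least 2-fold, 6 rose and 10 fell, beside 11.1% and 10.1% of bright probes. Scaling moved this split, to 15 higher and 47 lower when arrays were set to their 75th percentile, where bright probes stood at 29.9% and 39.9%, and to 49 higher and 10 lower after normexp, where bright probes stood at 58.7% and 11.5%. The median of bright ZNF genes lay 0.16 below that of bright probes in the fit as reported. Scaling to the 75th percentile shifts all probes of an array alike, so it cannot change this distance. The median lay 0.17 below after normexp, 0.14 below with the slide as a random block, 0.13 below by quantile normalization and 0.052 below by cyclic loess. Among the 129 dim ZNF genes 26 rose and 67 fell, with a median of −0.45, beside 18.1% and 56.2% of dim probes and a median of −0.82. Past 2-fold were 11 higher and 45 lower, beside 9.05% and 44.6% of dim probes. Of all 224, 47 rose and 101 fell, beside 27.0% and 44.6% of all probes.

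Over the total period fewer genes passed. Of the bright ZNF genes 24 rose, 9 fell and 62 did not pass, with a median change of 0.19, beside 18.0% and 7.97% of bright probes and a median of 0.14. Past 2-fold were ZNF628, which rose, and ZNF133, which fell, beside 0.902% and 1.27% of bright probes. The fit as reported takes 1 spread over all stages. By the methods' t-test, with the early and late arrays alone, 36 bright ZNF genes rose and 11 fell, beside 31.4% and 11.1% of bright probes. The median SE over all probes was then 0.13 instead of 0.19. Without the 3 dimmest middle arrays 39 rose and 11 fell, beside 31.4% and 11.6%. The split was 14 higher to 15 lower with the 75th percentile, 9 to 2 after normexp, 1 to 1 with the slide as a random block, 15 to 12 by quantile normalization and 22 to 16 by cyclic loess, while bright probes moved with them, from 18.0% and 7.97% to 10.8% and 12.5% with the 75th percentile, 10.2% and 10.9% by quantile normalization and 13.9% and 15.3% by cyclic loess. Relative to all bright probes the median of bright ZNF genes lay 0.055 higher in the fit as reported, a distance that scaling to the 75th percentile cannot change. It lay 0.069 higher by quantile normalization, 0.075 higher by cyclic loess and was at −0.033 after normexp, where 8.16% and 2.65% of bright probes passed. Of the dim ZNF genes 10 rose and 13 fell, beside 5.59% and 9.72% of dim probes, and 0 and 2 of them past 2-fold, beside 1.66% and 4.04%. Of all 224, 34 rose and 22 fell, beside 11.2% and 8.93% of all probes.

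**Figure D2:**
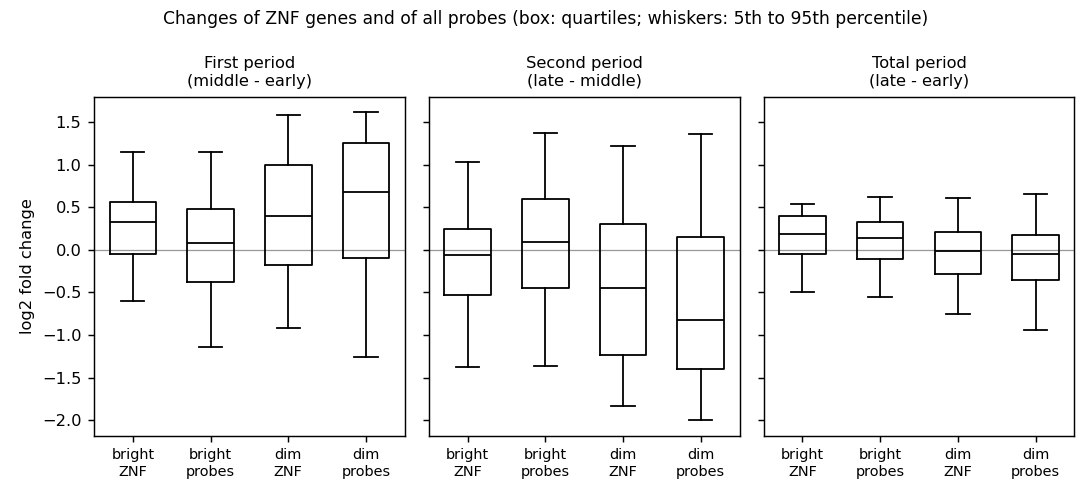
Changes on the log2 scale in the first, second and total periods for 95 bright ZNF genes, 6764 bright probes, 129 dim ZNF genes and all dim probes. The line in a box is the median, the box the quartiles and the whiskers the 5th to 95th percentile. In the first period the bright ZNF median, 0.33, lies above that of bright probes, 0.076.

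**Figure D3:**
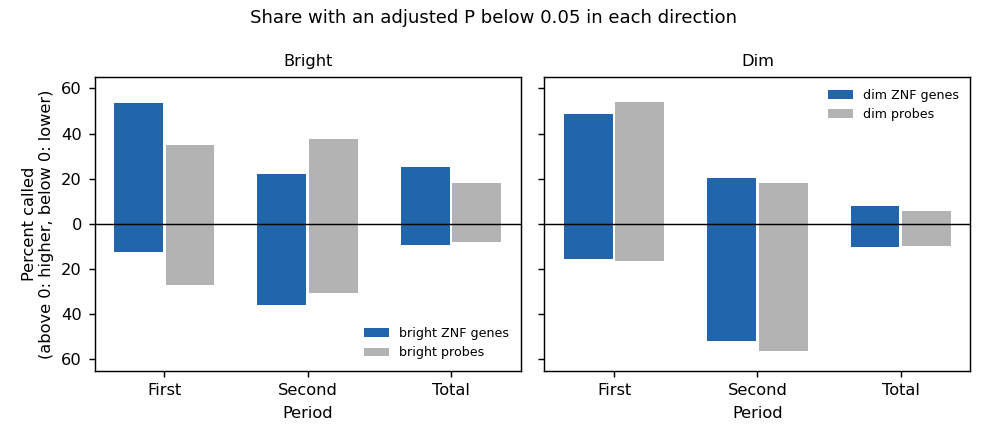
Percent of bright (left) and dim (right) ZNF genes (blue) and probes (grey) with an adjusted *P* below 0.05, higher above the zero line and lower below it. Bright ZNF genes rose in 53.7% in the first period, beside 34.8% of bright probes.

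Bright ZNF probes were less intense than bright probes at large, with a median level of 2.47 beside 3.19, so the medians were also set out by level, with the bright probes split at 2 levels into equal parts. In the first period they were 0.40 for ZNF genes and 0.26 for probes in the lowest part, 0.26 and −0.045 in the middle part, and 0.38 and 0.045 in the highest. In the second period they were −0.26 and −0.17, 0.042 and 0.23, and 0.044 and 0.17. ZNF genes stood above probes in each part in the first period and below them in each part in the second.

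The largest rise of the first period among bright ZNF genes was that of ZNF518A. Its probe maps to chr26:17372304-17372363, plus strand (UMD 3.1), and its sequence is shown because it shared no run of 16 bases with another probe.

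ZNF518A: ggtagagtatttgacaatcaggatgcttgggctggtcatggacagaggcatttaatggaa

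Lowest, median and highest levels of ZNF518A were 0.0022, 0.72 and 0.98 early, 2.17, 2.86 and 3.81 in the middle and 0.057, 0.42 and 0.81 late. The middle arrays lay apart from those of both other stages, which overlapped. It rose by 2.23 ± 0.17 (SE, adjusted *P* = 1.25e-08), or 4.7-fold, and then changed by −2.32 ± 0.17 (SE, adjusted *P* = 1.99e-09). The late and early stages differed by −0.085 ± 0.17 (SE, adjusted *P* = 0.79), which did not pass.

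ZNF395, a factor known to be induced under low oxygen, had levels of −0.94, 0.37 and 1.28 early, 0.45, 1.82 and 3.27 in the middle and 0.37, 0.69 and 1.09 late. Its early arrays had the widest spread of any bright ZNF gene at that stage (SD 0.68) and overlapped with the middle ones. The change was 1.58 ± 0.26 (SE, adjusted *P* = 4.76e-05) in the first period, up in 9 of 9 cattle, and −1.16 ± 0.26 (SE, adjusted *P* = 0.000614) in the second, down in 8 of 9.

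ZNF177 ran from levels of −0.93, −0.25 and 0.13 early to 0.55, 1.06 and 1.83 in the middle and −1.51, −0.95 and −0.38 late. The middle arrays did not overlap with either other stage. It changed by 1.39 ± 0.17 (SE, adjusted *P* = 2.26e-06), −2.10 ± 0.17 (SE, adjusted *P* = 6.91e-09) and −0.70 ± 0.17 (SE, adjusted *P* = 0.00634) in the first, second and total periods. The fall over the total period did not pass with the slide as a random block (adjusted *P* = 0.459).

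ZNF133, a KRAB gene, was lower at the late stage than at either other stage. Its probe, at chr13:38722001-38722060, plus strand (UMD 3.1), is shown as the one behind the largest change of the total period among bright ZNF genes.

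ZNF133: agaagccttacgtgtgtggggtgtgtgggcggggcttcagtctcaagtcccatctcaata

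Levels were 1.80, 2.03 and 2.25 early, 1.61, 1.99 and 2.24 in the middle and −0.47, −0.20 and 0.19 late, and the late arrays lay below every other array. The change was −0.033 ± 0.095 (SE, adjusted *P* = 0.772) in the first period, which did not pass. After normexp the first-period value was −0.34 and passed (adjusted *P* = 0.0183). In the fit as reported the change was −2.18 ± 0.095 (SE, adjusted *P* = 2.06e-12) in the second period. Over the total period it was −2.21 ± 0.095 (SE, adjusted *P* = 6.74e-12), a 4.62-fold fall with 9 of 9 cattle lower. The late arrays share slides with no other stage.

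Falls in the first period that went the same way in all 9 cattle were led by ZNF774, ZNF24, ZNF276 and ZNF830. ZNF24, a SCAN domain gene, changed by −0.57 ± 0.12 (SE, adjusted *P* = 0.000346), from 1.48, 1.85 and 2.17 early to 0.59, 1.43 and 1.57 in the middle, and stages overlapped. ZNF276 changed by −0.48 ± 0.13 (SE, adjusted *P* = 0.00312) and then rose by 1.04 ± 0.13 (SE, adjusted *P* = 1.22e-06). When the slide was a fixed block the first-period changes of ZNF24, ZNF276 and ZNF830 were 0.35, 0.019 and 0.41, none of which passed. These values rest on animals 8 and 9 to part slide from stage. The falls of ZNF276 and ZNF830 also ended with the slide as a random block (adjusted *P* = 0.0787 and 0.164).

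ZNF774 had a pair of probes that disagreed. At the brighter, levels were 2.90, 3.04 and 3.18 early, 1.69, 2.33 and 2.68 in the middle and 3.16, 3.46 and 3.74 late, the middle arrays lying below all others. It changed by −0.79 ± 0.12 (SE, adjusted *P* = 1.45e-05) and 1.19 ± 0.12 (SE, adjusted *P* = 6.58e-08) in the first and second periods. The dimmer probe, well above background on 5 early, 0 middle and 3 late arrays, gave 0.24 ± 0.24 (adjusted *P* = 0.391) and −0.42 ± 0.24 (adjusted *P* = 0.120), and with the mean of both the fall in the first period did not pass (adjusted *P* = 0.0692).

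The largest rises of the second period among bright ZNF genes with the same direction in all 9 cattle were those of ZNF414, ZNF706, ZNF774 and ZNF70. ZNF414 levels were 4.71, 5.72 and 6.02 early, 2.55, 4.06 and 5.12 in the middle and 5.07, 5.35 and 6.51 late. It changed by −1.44 ± 0.24 (SE, adjusted *P* = 4.33e-05) in the first period, down in 8 of 9 cattle, and by 1.40 ± 0.24 (SE, adjusted *P* = 3.66e-05) in the second, up in 9 of 9. Late and early arrays overlapped and differed by −0.038 ± 0.24 (SE, adjusted *P* = 0.945).

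ZNF706 gave 4.61, 4.98 and 5.24 early, 2.95, 4.11 and 5.06 in the middle and 5.23, 5.32 and 5.67 late, and late arrays lay above all middle ones. Its changes were −0.95 ± 0.17 (SE, adjusted *P* = 0.000119), 1.34 ± 0.17 (SE, adjusted *P* = 1.94e-06) and 0.39 ± 0.17 (SE, adjusted *P* = 0.119). ZNF70 changed by −0.69 ± 0.19 (SE, adjusted *P* = 0.00348) and 1.04 ± 0.19 (SE, adjusted *P* = 7.60e-05) in the first and second periods, and the fall did not pass with the slide as a random block (adjusted *P* = 0.149).

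Over the total period ZNF628, ZNF750, ZNF45 and ZNF32 rose most among bright ZNF genes with the same direction in all 9 cattle. ZNF628 had levels of 0.77, 0.83 and 1.19 early, 1.04, 1.43 and 2.22 in the middle and 1.59, 1.76 and 2.88 late, and late arrays did not overlap with early ones. It rose by 0.57 ± 0.13 (SE, adjusted *P* = 0.00119) in the first period and by 0.49 ± 0.13 (SE, adjusted *P* = 0.0031) in the second, and by 1.05 ± 0.13 (SE, adjusted *P* = 1.72e-05) in all. The rise in the second period did not pass with the 75th percentile as the scale (adjusted *P* = 0.0625), and that of the first was 0.13 after normexp (adjusted *P* = 0.318).

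ZNF750 is a transcription factor that drives late differentiation of the epidermis downstream of TP63. Its levels were 5.44, 5.80 and 6.38 early, 5.22, 5.66 and 6.78 in the middle and 6.16, 6.51 and 7.03 late, with overlap between all stages. The change was −0.063 ± 0.17 (SE, adjusted *P* = 0.75) in the first period, 0.74 ± 0.17 (SE, adjusted *P* = 0.000596) in the second and 0.68 ± 0.17 (SE, adjusted *P* = 0.00705) over the total period. The TP63 probe did not pass, at 0.11 ± 0.13 (SE, adjusted *P* = 0.449), −0.11 ± 0.13 (SE, adjusted *P* = 0.459) and 0.0045 ± 0.13 (SE, adjusted *P* = 0.988). IVL, which encodes the cornified envelope protein involucrin, changed by −1.99 ± 0.19 (SE, adjusted *P* = 1.58e-07) and 2.58 ± 0.19 (SE, adjusted *P* = 2.45e-09) in the first and second periods. Both late changes of ZNF750 ended with the slide as a random block (adjusted *P* = 0.0719 and 0.404).

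ZNF45 and ZNF32 rose by 0.67 ± 0.12 (SE, adjusted *P* = 0.000637) and 0.65 ± 0.12 (SE, adjusted *P* = 0.000869) over the total period. ZNF335, a component of a histone H3 lysine 4 methyltransferase complex, changed by −0.56 ± 0.11 (SE, adjusted *P* = 0.000951). It had risen by 0.66 ± 0.11 (SE, adjusted *P* = 3.48e-05) in the first period and changed by −1.22 ± 0.11 (SE, adjusted *P* = 1.50e-08) in the second, from 4.01, 4.26 and 4.87 in the middle to 2.95, 3.05 and 3.20 late, with no overlap of these arrays. After normexp these changes of ZNF335 were 0.026 and −0.36, neither of which passed (adjusted *P* = 0.908 and 0.0814). All 3 calls of the total period ended with the slide as a random block (adjusted *P* = 0.128, 0.0900 and 0.185).

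**Figure D4:**
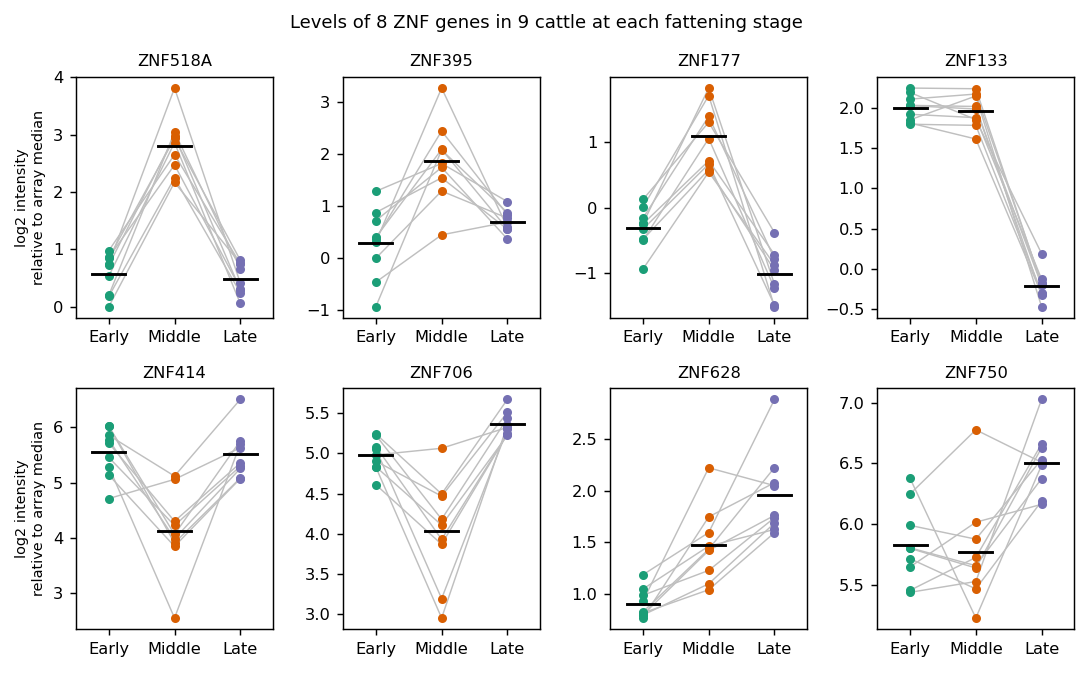
Levels of 8 bright ZNF genes, as log2 intensity relative to the array median, by fattening stage. Each point is 1 array, grey lines join the arrays of 1 animal, black bars are means of 9, and each panel has its own scale. ZNF133 stands apart at the late stage, where its highest array, 0.19, lies below its lowest middle array, 1.61.

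ZNF genes with a role in RNA moved in both directions. Of the 9 bright ones 3 rose and 5 fell in the first period, with a median change of −0.32, and 6 rose and 3 fell in the second, with a median of 0.61, beside 34.8% and 27.0% of bright probes in the first and 37.8% and 30.4% in the second. None passed over the total period at an adjusted *P* below 0.05, with a median of 0.19. At an unadjusted *P* below 0.05 were 2 of the 9, beside 2755 of 6764 bright probes. By the methods' t-test 3 passed as higher (ZNF706, ZNF207 and ZNF346). ZNF593 passed as lower with the 75th percentile (−0.29, adjusted *P* = 0.0385), quantile normalization (adjusted *P* = 0.0192) and cyclic loess (adjusted *P* = 0.00325). The 5 that fell first were ZNF706, ZNF830, ZNF622, ZNF346 and ZNF330, and the 3 that rose were ZNF326, ZNF385A and ZNF593.

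ZNF326, a part of the complex that couples transcript elongation to splicing, changed by 0.82 ± 0.18 (SE, adjusted *P* = 0.000559) and −0.63 ± 0.18 (SE, adjusted *P* = 0.00385) in the first and second periods. ZNF830, a spliceosome-associated protein, changed by −0.32 ± 0.11 (SE, adjusted *P* = 0.0127) and 0.52 ± 0.11 (SE, adjusted *P* = 0.00026). In the fit as reported these splicing genes went opposite ways in each period. The fall of ZNF326 did not pass with the slide as a random block (adjusted *P* = 0.0663) or without the 3 dimmest middle arrays (adjusted *P* = 0.0674), and after normexp the value was 0.095. The fall of ZNF830 did not pass with the slide as a random block (adjusted *P* = 0.164), without the 3 dimmest middle arrays (adjusted *P* = 0.114) or over the first scan day (adjusted *P* = 0.123). In the fixed-slide fit ZNF326 and ZNF830 were at 0.34 and 0.41 in the first period, neither of which passed.

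Of a pair of genes for maturation of the large ribosomal subunit, ZNF593 changed by 0.53 ± 0.10 (SE, adjusted *P* = 0.000225) and −0.71 ± 0.10 (SE, adjusted *P* = 9.75e-06), and ZNF622 by −0.60 ± 0.18 (SE, adjusted *P* = 0.00717) and 0.66 ± 0.18 (SE, adjusted *P* = 0.00339). They too were opposite. After normexp the changes of ZNF593 were 0.095 and 0.013, neither of which passed. Those of ZNF622 did not pass with the slide as a random block (adjusted *P* = 0.167 and 0.161), and when it was a fixed block the first-period value was 1.03, which did not pass.

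ZNF346, which binds double-stranded RNA, changed by −0.60 ± 0.23 (SE, adjusted *P* = 0.0264) and 1.03 ± 0.23 (SE, adjusted *P* = 0.000509). Its fall did not pass with the 75th percentile as the scale (adjusted *P* = 0.0565), by the methods' t-test (adjusted *P* = 0.0969) or without any of cattle 1, 2, 5, 7 or 8 (adjusted *P* from 0.0544 to 0.0912). ZNF385A, an RNA-binding partner of p53, changed by 0.76 ± 0.17 (SE, adjusted *P* = 0.000821) and −0.64 ± 0.17 (SE, adjusted *P* = 0.00252). ZNF207, a partner of BUB3 at the kinetochore and in splicing, gave −0.31 ± 0.17 (SE, adjusted *P* = 0.125), which did not pass, and rose by 0.70 ± 0.17 (SE, adjusted *P* = 0.00137). ZNF330, a nucleolar protein, changed by −0.54 ± 0.17 (SE, adjusted *P* = 0.00968) and 0.61 ± 0.17 (SE, adjusted *P* = 0.00369), and its fall did not pass by the methods' t-test (adjusted *P* = 0.0546). With the slide as a random block neither call of ZNF330 (adjusted *P* = 0.135 and 0.161) or ZNF346 (adjusted *P* = 0.196 and 0.0582) passed, nor did the second-period calls of ZNF385A (adjusted *P* = 0.0724) and ZNF207 (adjusted *P* = 0.120). After normexp those of ZNF385A were 0.13 and −0.033, which did not pass. The dim ZNF638, also a splicing gene, changed by −0.85 ± 0.18 (SE, adjusted *P* = 0.00287) over the total period.

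Among the 12 bright regulators of transcription and chromatin, 7 rose and 2 fell in the first period, 1 rose and 6 fell in the second, and 1 rose and 4 fell over the total period. Their median changes were 0.36, −0.25 and −0.21. Of all bright probes 34.8% rose and 27.0% fell in the first, 37.8% and 30.4% in the second and 18.0% and 7.97% in the total period. The 4 lower at the late than at the early stage were ZNF335, ZNF143, ZNF217 and ZNF24, and the 1 higher was ZNF219, at 0.44 ± 0.11 (SE, adjusted *P* = 0.0103). All 5 calls ended with the slide as a random block (adjusted *P* = 0.185, 0.421, 0.615, 0.663 and 0.398 in that order) and after normexp (adjusted *P* from 0.0770 to 0.337).

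ZNF143, an activator bound at many promoters and at small nuclear RNA genes, had levels of 0.93, 1.32 and 1.81 early, 1.90, 2.33 and 2.66 in the middle and 0.50, 0.82 and 1.33 late. Middle arrays overlapped with those of neither other stage. Its changes were 0.94 ± 0.13 (SE, adjusted *P* = 1.22e-05), −1.46 ± 0.13 (SE, adjusted *P* = 3.13e-08) and −0.53 ± 0.13 (SE, adjusted *P* = 0.00895). ZNF217, a partner of the corepressor CtBP, changed by 0.45 ± 0.17 (SE, adjusted *P* = 0.0244), −0.95 ± 0.17 (SE, adjusted *P* = 6.27e-05) and −0.50 ± 0.17 (SE, adjusted *P* = 0.0424). The first-period call of ZNF217 ended with the slide as a random block (adjusted *P* = 0.215), without the 3 dimmest middle arrays (adjusted *P* = 0.0665), over the first scan day (adjusted *P* = 0.0501) and when animal 3, 4 or 8 was left out (adjusted *P* from 0.0512 to 0.0740), and after normexp it was −0.068. The total-period call of ZNF217 ended when any of cattle 1, 2, 3, 5, 7 or 8 was left out (adjusted *P* from 0.0583 to 0.134), and that of ZNF24, at −0.37 ± 0.12 (SE, adjusted *P* = 0.0321), when any of cattle 1 to 5 was (adjusted *P* from 0.0530 to 0.0878).

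ZNF644, which recruits the H3 lysine 9 methyltransferase G9a, changed by 0.94 ± 0.16 (SE, adjusted *P* = 5.10e-05) and −0.60 ± 0.16 (SE, adjusted *P* = 0.0022), and ZNF592, a partner of ZMYND8, by 0.47 ± 0.11 (SE, adjusted *P* = 0.000858) and −0.69 ± 0.11 (SE, adjusted *P* = 1.53e-05). ZNF148, which binds GC-rich promoters, changed by 0.34 ± 0.091 (SE, adjusted *P* = 0.00276) and −0.55 ± 0.091 (SE, adjusted *P* = 3.20e-05). After normexp none of these calls of ZNF644, ZNF592 and ZNF148 passed, with values of 0.19 and 0.16, 0.013 and −0.11, and −0.029 and −0.060. Over the total period ZNF148 did not pass in the fit as reported. It passed there as lower with the 75th percentile (−0.32, adjusted *P* = 0.0139), cyclic loess (adjusted *P* = 0.00658) and the methods' t-test (adjusted *P* = 0.0435). ZNF410, an activator of CHD4, gave −0.13 ± 0.25 (SE, adjusted *P* = 0.672), which did not pass, and then 0.66 ± 0.25 (SE, adjusted *P* = 0.0267), which did not pass with the 75th percentile as the scale (adjusted *P* = 0.0928) or without any of cattle 4 to 7 (adjusted *P* from 0.0645 to 0.0922).

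ZNF281, linked to the transition from epithelial to mesenchymal state, changed by −0.58 ± 0.16 (SE, adjusted *P* = 0.00417) in the first period and gave 0.28 ± 0.16 (SE, adjusted *P* = 0.126) in the second, and the fall did not pass with the slide as a random block (adjusted *P* = 0.142). ZNF131 and ZNF462 passed in no period in the fit as reported, but did in some other settings. In the first period ZNF131 passed with the 75th percentile (adjusted *P* = 0.0147), quantile normalization (adjusted *P* = 0.0199) and cyclic loess (adjusted *P* = 0.00401). ZNF462 passed there with cyclic loess (adjusted *P* = 0.0411) and without the 3 dimmest middle arrays (adjusted *P* = 0.0147). By the methods' t-test ZNF131 passed over the total period (adjusted *P* = 0.00173). In the fit as reported ZNF131 was at 0.28 ± 0.14 (SE, adjusted *P* = 0.0767) and 0.32 ± 0.14 (SE, adjusted *P* = 0.106) in the first and total periods, and ZNF462 at 0.27 ± 0.18 (SE, adjusted *P* = 0.196) and 0.44 ± 0.18 (SE, adjusted *P* = 0.0888).

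**Figure D5:**
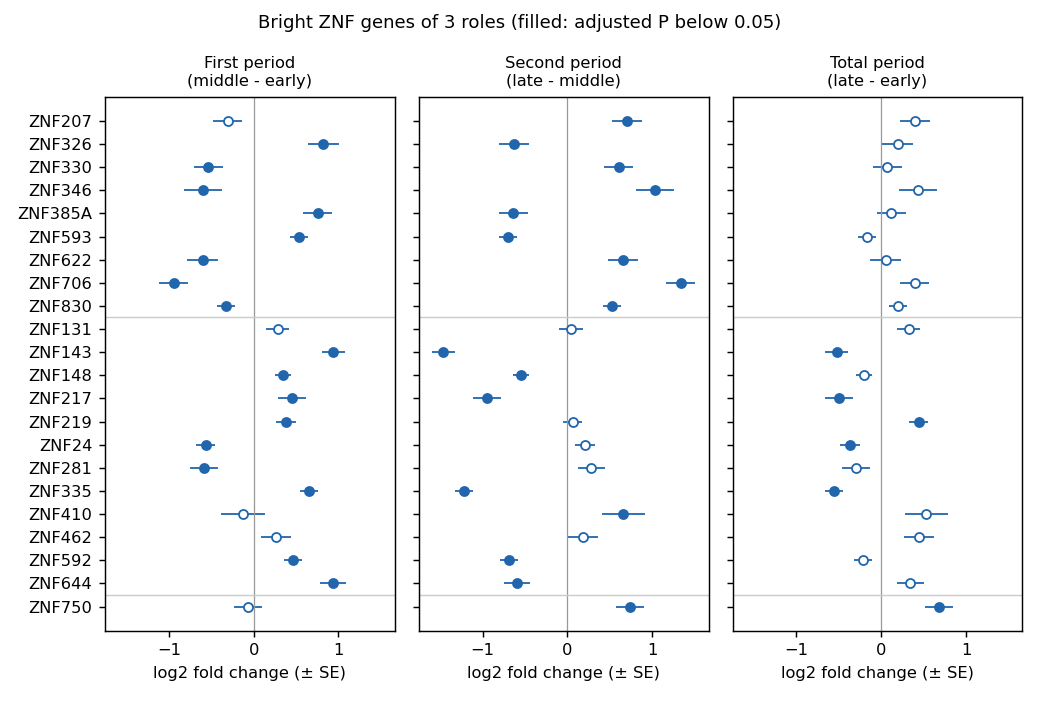
Changes on the log2 scale with standard errors for the 22 bright ZNF genes of 3 roles, RNA, splicing and ribosome at the top, transcription and chromatin in the middle and the epithelial ZNF750 at the bottom, in each period. Filled points have an adjusted *P* below 0.05, and in the total period the RNA genes have none.

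The 3 bright ZNF probes of highest intensity were those of ZNF674, ZNF323 (now ZSCAN31, a SCAN domain gene) and ZNF444. ZNF674, a KRAB gene, had levels of 7.82, 8.15 and 8.28 early, 8.11, 8.66 and 9.52 in the middle and 7.71, 7.82 and 8.14 late. It changed by 0.54 ± 0.12 (SE, adjusted *P* = 0.000978) and −0.76 ± 0.12 (SE, adjusted *P* = 2.84e-05). ZNF323 changed by 0.77 ± 0.12 (SE, adjusted *P* = 2.15e-05), −1.20 ± 0.12 (SE, adjusted *P* = 5.85e-08) and −0.44 ± 0.12 (SE, adjusted *P* = 0.0113), and ZNF444 gave 0.85 ± 0.13 (SE, adjusted *P* = 2.86e-05), −0.74 ± 0.13 (SE, adjusted *P* = 7.73e-05) and 0.12 ± 0.13 (SE, adjusted *P* = 0.609). After normexp no call of these 3 genes passed, with first-period values of 0.069, 0.26 and 0.23 and second-period values of −0.061, −0.47 and 0.11 for ZNF674, ZNF323 and ZNF444. The total-period call of ZNF323 also ended with the slide as a random block (adjusted *P* = 0.534).

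The corepressors through which KRAB genes act moved in both directions. Of 22 bright ones 8 rose and 9 fell in the first period, with a median of −0.13, 11 rose and 6 fell in the second, with a median of 0.32, and 2 rose over the total period, with a median of 0.013. The shares of all bright probes higher and lower were 34.8% and 27.0%, 37.8% and 30.4%, and 18.0% and 7.97%. TRIM28, the corepressor that binds KRAB domains directly, passed in no period, at −0.076 ± 0.13 (SE, adjusted *P* = 0.619), −0.11 ± 0.13 (SE, adjusted *P* = 0.474) and −0.18 ± 0.13 (SE, adjusted *P* = 0.367). SETDB1, the H3 lysine 9 methyltransferase it recruits, gave −0.19 ± 0.11 (SE, adjusted *P* = 0.145), which did not pass, and rose by 0.26 ± 0.11 (SE, adjusted *P* = 0.0447).

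Of the heterochromatin protein genes CBX5 changed by 1.96 ± 0.21 (SE, adjusted *P* = 5.93e-07) and −2.01 ± 0.21 (SE, adjusted *P* = 1.88e-07) and CBX1 by 0.88 ± 0.18 (SE, adjusted *P* = 0.000268) and −1.18 ± 0.18 (SE, adjusted *P* = 1.00e-05), while CBX3 gave −0.064 ± 0.11 (SE, adjusted *P* = 0.623) and −0.13 ± 0.11 (SE, adjusted *P* = 0.306). ATF7IP, a partner of SETDB1, changed by 1.47 ± 0.15 (SE, adjusted *P* = 3.10e-07) and −1.46 ± 0.15 (SE, adjusted *P* = 1.34e-07). The histone chaperone subunit RBBP7 went the other way, at −1.32 ± 0.13 (SE, adjusted *P* = 1.58e-07) and 1.54 ± 0.13 (SE, adjusted *P* = 7.70e-09), as did SUMO2, at −0.64 ± 0.12 (SE, adjusted *P* = 0.000144) and 1.10 ± 0.12 (SE, adjusted *P* = 2.72e-07).

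Zinc finger genes of other name families (ZBTB, ZC3H, ZFP, ZFYVE, ZKSCAN and ZSCAN), 34 of them bright, had 17 higher and 5 lower in the first period, 8 and 15 in the second and 9 and 2 over the total period. Their median changes were 0.31, −0.20 and 0.16, beside 0.33, −0.061 and 0.19 for the bright ZNF genes. Bright probes at large were higher and lower in 34.8% and 27.0%, 37.8% and 30.4%, and 18.0% and 7.97% in the same periods.

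Dim ZNF genes were named for the size of their change among those well above background on all arrays of the stage where they were higher. Their direction is therefore a description. That some arrays of another stage were not well above background follows from this rule and from their being dim. ZNF408 had levels of −0.85, −0.40 and −0.13 early, −3.26, −1.71 and −1.17 in the middle and −0.90, −0.69 and −0.53 late, and 4 of 9 middle arrays were well above background for it. It changed by −1.63 ± 0.20 (SE, adjusted *P* = 2.20e-06) and 1.32 ± 0.20 (SE, adjusted *P* = 1.09e-05). ZNF524 changed by −1.49 ± 0.21 (SE, adjusted *P* = 1.06e-05) and 2.12 ± 0.21 (SE, adjusted *P* = 8.43e-08) and in the middle stage exceeded background clearly on 6 of 9 arrays. ZNF345, with 5 of 9 middle arrays well above background, had a second-period change of 1.75 ± 0.24 (SE, adjusted *P* = 5.00e-06). After normexp the second-period change of ZNF408 was 0.018, which did not pass.

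Over the total period ZNF358 and ZNF7 rose, by 0.81 ± 0.15 (SE, adjusted *P* = 0.000881) and 0.79 ± 0.14 (SE, adjusted *P* = 0.000421). ZNF18 and ZNF784 were lower, with changes of −2.38 ± 0.11 (SE, adjusted *P* = 1.74e-11) and −2.23 ± 0.24 (SE, adjusted *P* = 2.93e-06). Levels of ZNF18 were −0.47, −0.26 and 0.07 early, −1.25, −0.51 and −0.24 in the middle and −3.20, −2.70 and −2.00 late, and those of ZNF784 −1.43, −1.26 and −1.01, −0.89, −0.53 and 0.42 and −4.72, −3.26 and −2.33. In both genes every late array lay below every array of the other stages, and only 5 and 3 of 9 late arrays were well above background, so the size of both changes rests on low signal. The rises of ZNF358 and ZNF7 ended with the slide as a random block (adjusted *P* = 0.262 and 0.232), and that of ZNF358 was 0.035 after normexp, which did not pass.

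Chromosome was known for 223 of the ZNF probes in the UMD 3.1 build. The most were on chromosome 18, with 63, and on chromosomes 7 and 25, with 19 each. For all bright probes the shares higher and lower were 34.8% and 27.0%, 37.8% and 30.4%, and 18.0% and 7.97% in the first, second and total periods. On chromosome 18, 19 were bright, of which 8 rose and 1 fell in the first period, 4 rose and 4 fell in the second and 8 rose and 0 fell over the total period, with medians of 0.26, −0.0012 and 0.31. The 13 bright ones on chromosome 25 had 6 and 1, 3 and 2, and 5 and 0, with medians of 0.31, 0.0095 and 0.31. On chromosome 7 the 7 bright ones had 5 and 2, 2 and 4, and 1 and 2, with medians of 0.79, −0.99 and −0.038. The other 56 had 32 and 8, 12 and 24, and 10 and 7, with medians of 0.34, −0.087 and 0.14. No test of chromosomes was made.

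The spread among the 9 arrays of a stage was wider at the middle stage. For bright ZNF genes the median SD was 0.20 early, 0.36 in the middle and 0.18 late, beside 0.21, 0.42 and 0.20 for bright probes. The widest SD at each stage was that of ZNF395 early (0.68), ZNF33B in the middle (1.04) and ZNF410 late (0.65).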

How the data were processed

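RNA of 27 RE biopsies was measured on arrays of 1 color. The intensity values deposited by the authors are processed signals of Agilent Feature Extraction on a linear scale, made by subtracting a local background from each spot. The version in the output is 11.0.1.1, while the submitters' processing notes name 9.5. The flags for signal well above background and for outlier spots, each a score of 0 or 1 per spot, are as deposited by the authors. A table of log2 values, also deposited by the authors, differs from log2 of the processed signal by about the 75th percentile of each array and served as an alternative. The extraction protocol in the labels names other tissues, while the tissue label and the methods name the RE. No value columns of other samples were present (0 unused).

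The log2 processed signal was set relative to the array median over probes other than controls, with outlier spots missing and spots of 1 probe averaged. Stage means with an animal effect were fitted over 15008 probes in limma 3.58.1 (R 4.3.3, statmod 1.5.0) with empirical Bayes moderation, and *P* values were adjusted by Benjamini-Hochberg. Each stage had 1 array per animal, so animals pair the arrays. The mean correlation of deviations from stage means was 0.158 between arrays of 1 animal, above 0 in 24 of 27 pairs, and of −0.020 between different cattle. On simulated data with 200 of 15008 probes changed by 1 on the log2 scale, limma called 66.5% of them in either period, with 3.62% and 8.90% of calls false. The simulation drew independent noise with 1 spread per probe at all stages and no slide, array or animal effect. Its rates therefore do not describe the real arrays, where the middle stage spread wider, slide largely coincided with stage and many more probes were called.

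Named by rule were ZNF33B, the 3 bright ZNF genes of highest level, per comparison the 4 largest rises and falls among bright ZNF genes and up to 2 of each among dim ones, all DEGs moving the same way in 9 of 9 cattle, and the bright members of the role lists, 44 genes in all. Dim ones also had to be well above background on all 9 arrays of the stage where they were higher. Other genes were named after their values were seen. The members and lists were chosen with earlier results of these data known. The search for shared runs (lengths of 20, 16 and 14 bases were tried and 16 kept), the split by level, the grouping by chromosome and the probes shown were chosen after the data were seen. A search for probes encoding the linker between fingers was tried and dropped, since it found few. Of the 224 ZNF genes 166 were found in the reference gene table, and 9 have another symbol there than in the design. Classes by protein domain were not analysed here, nor were quantitative PCR values. Probe coordinates are those of the array design on UMD 3.1, and exon or UTR positions were not analysed here. The number of arrays, 9 per stage, limits the precision. Alternatives were other scalings (75th percentile, median of bright probes, quantile, cyclic loess) and normexp (offset 50). Removal of part of the dim probes (10165 probes kept), outlier spots kept, the deposited log2 values and no animal effect were also tried. Further ones were slide 2 alone, the slide as a fixed or a random block, the methods' t-test, the mean of the probes of a gene, and each animal left out. Leaving out the 3 middle arrays with under 60% of probes well above background, and taking the first scan day by itself, were added after the data were seen.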

Additional observations from a re-analysis of the deposited data

Results flagged for a closer look

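In 12 of the 132 sets of 9 arrays, 1 for each of the 44 named genes at each of 3 stages, the highest or lowest array stood apart from the nearest other by more of the range than Dixon's limit at the 95% level. Chance would mark about 1 in 20. The middle array of animal 4, which had the lowest median signal of all arrays, made up 6 of the 12. It was low for ZNF276 (level 3.38, next 4.18), ZNF207 (3.36, next 4.46), ZNF330 (1.73, next 3.09) and ZNF281 (0.96, next 1.89), and high for ZNF335 (4.87, next 4.34) and ZNF784 (0.42, next −0.26). The part of array brightness in these values was not tested.

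The other 6 lay on 6 other arrays. ZNF414 was low in the middle array of animal 6 (2.55, next 3.84) and high in the late array of animal 3 (6.51, next 5.75). ZNF70 was low in the early array of animal 9 (0.59, next 1.08), the only early array on slide 2. ZNF628 was high in the late array of animal 9 (2.88, next 2.22), the only one on slide 5. ZNF326 was high in the early array of animal 1 (5.91, next 5.32) and ZNF385A in the late array of animal 1 (2.13, next 1.69).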

How the results depend on the processing

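Counts of ZNF genes of both kinds in the first and second periods stayed within 1.5 times of the reported ones when any animal was left out. With the slide as a random block 81 ZNF genes were higher and 16 lower in the first period (43 and 4 bright). In the second 24 were higher and 70 lower (8 and 24 bright), and over the total period 1 and 3 (1 and 1 bright). Bright probes stood at 27.3% and 14.6%, 22.0% and 22.0%, and 0.976% and 1.26% in these periods. With the slide as a fixed block, possible in the first period only, 24 were higher and 1 lower (12 and 0 bright), and ZNF33B, ZNF518A and ZNF408 passed among the named genes. On slide 2 alone, with 1 early array and no test given, the median change of all ZNF genes was 0.45, beside 0.22 for all probes. After normexp 15 bright ZNF genes were higher and 19 lower in the first period, 49 and 10 in the second, and 17 and 7 ZNF genes over the total period (9 and 2 bright).

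Over the total period 18 ZNF genes were higher and 35 lower with the 75th percentile or with the deposited log2 values (14 and 15 bright), and 16 and 35 with the median of bright probes (12 and 15 bright). Quantile normalization gave 15 bright higher and 12 lower, and cyclic loess 22 and 16. The methods' t-test gave 53 ZNF genes higher and 31 lower (36 and 11 bright), beside 31.4% and 11.1% of bright probes. Without the 3 dimmest middle arrays, 59 ZNF genes were higher and 31 lower (39 and 11 bright), beside 31.4% and 11.6% of bright probes. A looser signal filter kept 10165 probes, more than the 6764 bright ones, so it removed only part of the dim probes. By construction fewer ZNF genes were then lower in the second period (58, of which 34 bright). Over the total period, with 1 animal left out, ZNF genes higher ranged from 22 (without animal 6) to 40 and lower from 13 (without animal 3) to 25, and bright ones higher from 15 (without animal 6) to 26 and lower from 5 (without animal 1, 2, 3 or 5) to 10. Without the animal effect, that is with no replicate block, the counts in the first period were 113 higher and 28 lower, in the second 46 and 100, and over the total period 32 and 18, and without this pairing 3 calls of named genes ended (ZNF33B and ZNF217 in the total and ZNF346 in the first period). Where not stated, the cause of a shift was not tested.

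Among changes of the named genes that passed in the fit as reported, the sign turned in 16 cases and in 3 settings. Changes that had not passed were not counted. With the slide as a fixed block these were, in the first period, ZNF24 at 0.35, ZNF276 at 0.019, ZNF830 at 0.41, ZNF706 at 0.21, ZNF784 at −0.59, ZNF346 at 0.20 and ZNF622 at 1.03. Such estimates rest on animals 8 and 9 to part slide from stage. Quantile normalization gave ZNF358 −0.014 in the first period. Normexp gave ZNF148 −0.029, ZNF217 −0.068 and ZNF219 −0.18 in the first period and ZNF444 0.11, ZNF358 −0.21, ZNF326 0.10, ZNF593 0.013 and ZNF644 0.16 in the second. Signal over background was lowest on the middle arrays, and its part in the precision was not tested.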

Other observations

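Further ZNF probes shared bases with probes of other genes. The dim ZNF300 and ZNF583 probes share 18 bases, and over 27 arrays their levels had a correlation of −0.688 and their deviations from the stage means one of −0.082. The dim ZNF189 probe shares 16 bases with the bright GGNBP2 probe, with correlations of 0.661 and 0.044. Beside the 0.983 of ZNF33B and MTMR2, the correlation of deviations over the other 8 pairs ran from −0.367 to 0.195, as a description over the same arrays.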
